A study of Homo sapiens with 12 samples.

Results

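The 9 genes described here carry the class I pathway of antigen presentation in the RNA of 2 human lung cancer cell lines. They were chosen by name, as the rows of the expression table named HLA-B, HLA-C, HLA-E, HLA-F, B2M, TAP1, TAP2, TAPBP and NLRC5, and make up 9 of the 19973 genes listed. RNA was sequenced from H460 and A549, both established lines of non-small cell lung carcinoma (NSCLC), either non-treated (control) or after 48 h with 10 µM ISP-I (isovalerylspiramycin I, a component of the macrolide antibiotic carrimycin). Each of the 4 groups had 3 libraries, 12 in all, and the controls received no agent according to the labels. The values are FPKM, the fragments counted on a gene divided by its length and by the reads of the library. The labels do not say whether the 3 replicates of a group came from separate cultures, so p-values measure the spread between these libraries, which may be technical.

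Class I molecules show fragments of a cell's own proteins to CD8 T cells. A heavy chain (HLA-B, HLA-C and their relatives) pairs with the light chain beta-2-microglobulin, encoded by B2M, and is loaded in the endoplasmic reticulum with peptides that the TAP1-TAP2 transporter brings in from the cytosol, with tapasin (TAPBP) holding the empty heavy chain at the transporter. HLA-E and HLA-F are less variable heavy chains that are read mostly by receptors of NK cells, and NLRC5 is the transactivator that sits on class I promoters and raises the transcription of heavy chains, B2M and TAP1 together. Tumours are known to lower parts of this pathway, and interferons raise it.

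The libraries held 14225849 to 17874422 reads on the listed genes. Within a group, the chi-square of 2 libraries' reads, divided by its degrees of freedom (about 1 if a library was sequenced again), ran from 3.03 to 98.7, and no library repeated another. Library 3 of H460 with ISP-I stood apart most, and library 3 of the A549 controls had values of 28.04 and 32.5 against its 2 companions, and leaving it out ended no member's call. Among 8 epithelial markers the keratins KRT8, KRT18 and KRT19 were abundant, and the summed FPKM of the list ranged over 360 to 434 (control) and 330.2 to 421 (ISP-I) in H460, and over 1438 to 1828 and 1256 to 1269 in A549. A further keratin of the list, KRT7, averaged 1.17 FPKM in H460 controls and 2.35 with ISP-I, and 557 and 614 FPKM in A549. CLDN4 and MUC1 averaged 0.489 and 1.10 FPKM in H460 controls and 1.94 and 0.437 FPKM in A549 controls. The epithelial adhesion genes EPCAM and CDH1 were near 0 in H460 controls, at 0.0473 and 0 FPKM on average. Of 14 lymphocyte and myeloid markers, whose sum was 2.29 to 8.40 FPKM in the 12 libraries, 5 to 7 were at 0 in each group, and the pan-leukocyte gene PTPRC was listed at no more than 0.0368 FPKM in any library. In that list, ITGAM (an integrin of myeloid cells) rose with ISP-I, averaging 0.0309 then 2.22 FPKM in H460 and 1.23 then 6.89 FPKM in A549, and CD14 fell, averaging 5.92 then 1.26 FPKM and 1.07 then 0.144 FPKM. Fibroblast markers (8 genes) summed to 9.99 to 11.1 FPKM in H460 controls, 5.15 to 5.94 with ISP-I, and 1.52 to 2.19 in the 6 A549 libraries, and the 7 endothelial markers to at most 0.472 FPKM. The part of these markers in the results below was not tested. In bulk RNA, fewer cells that carry a transcript and less of it per cell cannot be told apart.

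In both lines, with ISP-I, the heavy chains HLA-B and HLA-E and the light chain B2M rose, and both subunits of the transporter, TAP1 and TAP2, and tapasin fell. HLA-C did not pass the test in either line and HLA-F did not in H460. NLRC5 rose in A549 and fell in H460, where the call was lost with median-of-ratios scaling and with quantile normalization. In H460, 3 members rose, 4 fell and 2 did not pass the test (limma on log2(FPKM + 1), an adjusted p below 0.05 after the Benjamini-Hochberg correction over all genes). In the same comparison 27.6% of all tested genes were higher and 41.5% lower, so the members' counts there are close to those of genes in general. At a fold change over 2 as well, taken on the log2(FPKM + 1) scale and so stricter than the ratio of means for low genes, 2 members were higher and 2 lower, against 10.5% and 15.2% of all genes. Which members exceeded 2-fold in H460 depended on the scaling. With median-of-ratios scaling, TAP1 (-0.94) and TAP2 (-0.91) were short of it and B2M (1.01) was just past it. In A549, 5 members rose, 3 fell and 1 did not pass, where 30.5% of all genes were higher and 27.0% lower. Of these, 2 were higher and 1 lower by more than 2-fold, against 4.20% and 3.51% of all genes. The median log2 change of all genes was -0.15 in H460 and 0.02 in A549.

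**Figure D1:**
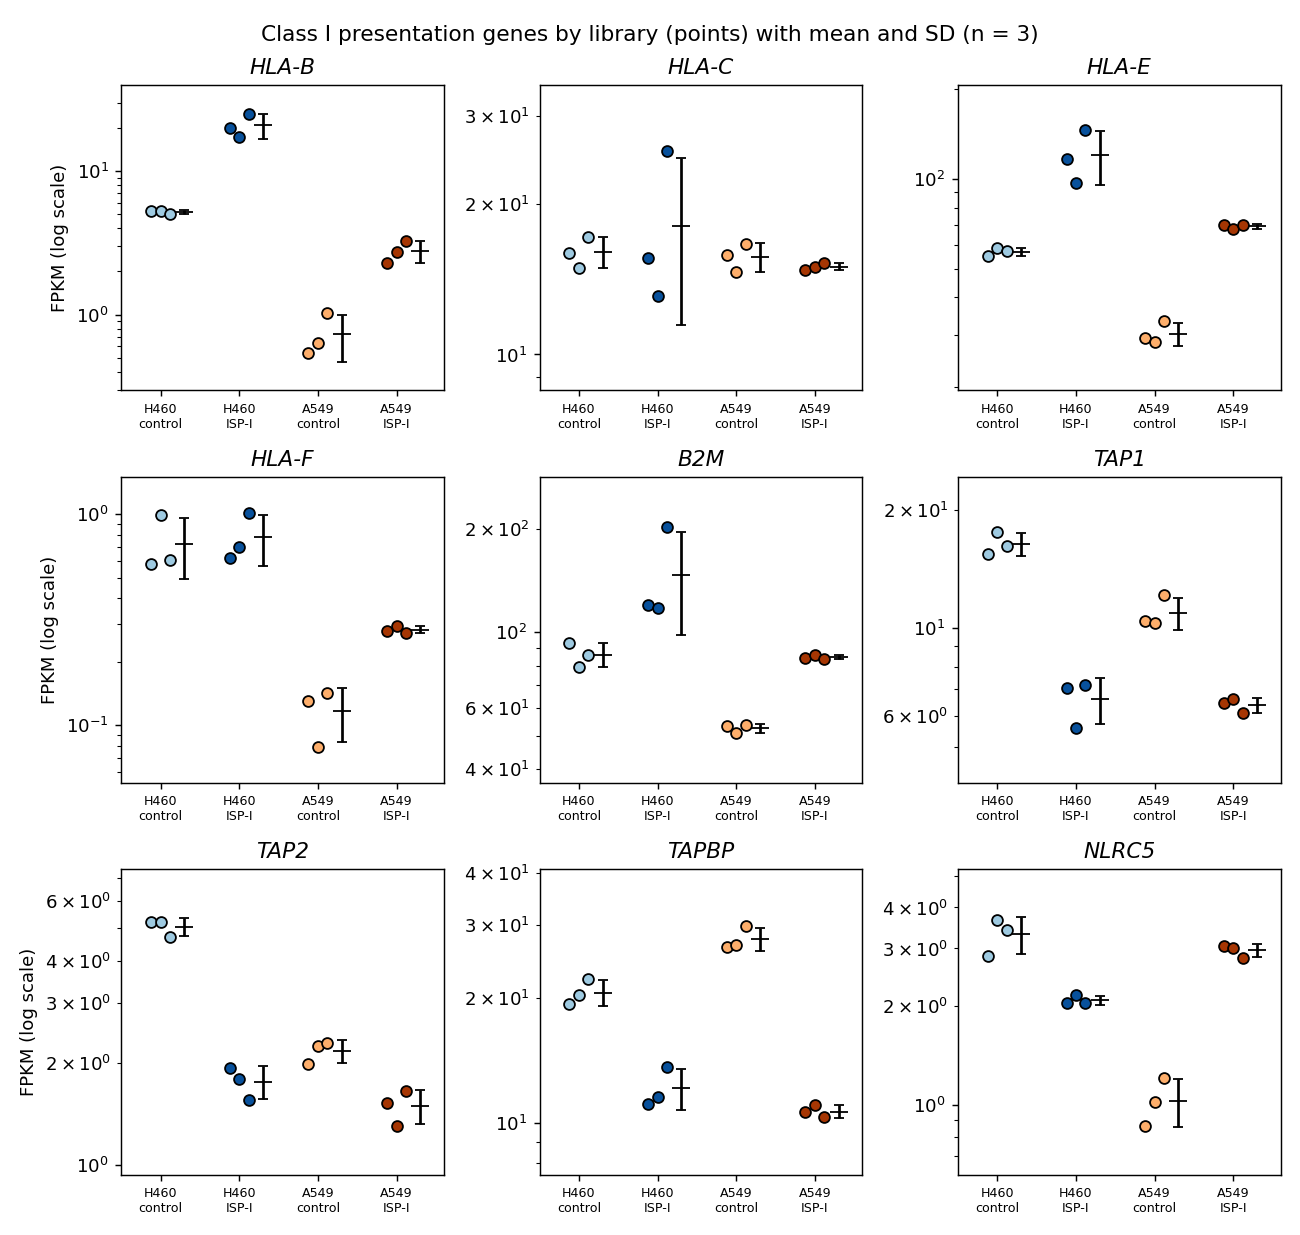
FPKM of the 9 members in each of the 12 libraries (points), with the mean and SD of each group of 3 (bar), on a log scale that differs between panels. HLA-B, HLA-E and B2M sit higher with ISP-I in both lines, TAP1, TAP2 and TAPBP lower, HLA-C overlaps in all groups, and NLRC5 is lower in H460 and higher in A549.

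The 7 members with a start site in the RefSeq promoter table (GRCh38.p14) were searched on both strands over the 250 bases before the start for 4 motifs known from class I promoters. These were the core of the interferon-stimulated response element (ISRE, GAAANNGAA), the short cyclic AMP response element (CRE) of the X2 box (TGACG), the inverted CCAAT box of the kind found in the Y box (ATTGG), and the NF-kB site. HLA-E and NLRC5 had no entry. Sequences are shown for HLA-B, which rose, and HLA-C, which did not pass the test in either line, because their starts are so alike, and for B2M and TAP1, which moved in opposite directions and both held overlapping ISRE cores and an NF-kB match. Each reads 5′ to 3′ toward the start, with the motif matches in capitals, where the runs of 9 bases or more are ISRE or NF-kB matches and the shorter ones CRE or CCAAT matches. They lie at chr6:31357180-31357374 (minus strand) for HLA-B, chr6:31272093-31272287 (minus strand) for HLA-C, chr15:44711324-44711516 (plus strand) for B2M and chr6:32853705-32853899 (minus strand) for TAP1.
HLA-B: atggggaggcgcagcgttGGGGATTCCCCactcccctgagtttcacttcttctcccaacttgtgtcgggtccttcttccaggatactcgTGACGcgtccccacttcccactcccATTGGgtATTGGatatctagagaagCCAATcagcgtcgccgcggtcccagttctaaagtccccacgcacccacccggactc
HLA-C: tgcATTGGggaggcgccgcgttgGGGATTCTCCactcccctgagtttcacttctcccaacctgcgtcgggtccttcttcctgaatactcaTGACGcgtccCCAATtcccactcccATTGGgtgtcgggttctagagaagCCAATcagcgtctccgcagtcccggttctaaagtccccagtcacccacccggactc
B2M: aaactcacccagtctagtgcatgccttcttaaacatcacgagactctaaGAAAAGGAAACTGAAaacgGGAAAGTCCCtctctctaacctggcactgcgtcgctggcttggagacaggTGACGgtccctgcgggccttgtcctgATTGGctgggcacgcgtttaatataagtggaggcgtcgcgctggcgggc
TAP1: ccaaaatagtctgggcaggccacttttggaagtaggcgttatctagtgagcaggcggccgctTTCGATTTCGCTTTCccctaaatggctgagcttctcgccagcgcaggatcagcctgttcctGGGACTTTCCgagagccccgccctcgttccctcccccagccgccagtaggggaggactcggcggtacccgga

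Over the stretch before each start that is shown, HLA-B and HLA-C were identical at 175 of 199 aligned columns (87.9%). In this aligned stretch each held a CRE match, at -106 in HLA-B and -105 in HLA-C, counted from the base before the start as -1. Between it and the start, 3 CCAAT boxes followed in each, and HLA-C held another at -192. An NF-kB match began at -177 in HLA-B, where 2 matches overlap, and at -172 in HLA-C. The exact ISRE core string had no match in the window of either, and sites that depart from that string were not searched for. HLA-F held an ISRE core at -155 and was 82.3% identical to HLA-B. In B2M, 2 overlapping ISRE cores began at -144 and -138, beside an NF-kB match at -125, a CRE match at -75 and a CCAAT box at -49. TAP1 also had overlapping ISRE cores, at -133 and -127, with an NF-kB match at -72 and a CCAAT box at -249, and a further start site of TAP1 in the table held no match. TAPBP held a pair at -20 and -14 with an NF-kB match at -56, and TAP2 a single ISRE core at -58 and a CRE match at -35. Among all 35116 promoters of the table, 6.88% held the ISRE core, 21.2% the CRE, 32.0% the CCAAT box and 5.21% the NF-kB site within the same window. A match is a run of letters and not evidence of binding, and the lack of a match is not evidence that a site is absent.

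**Figure D2:**
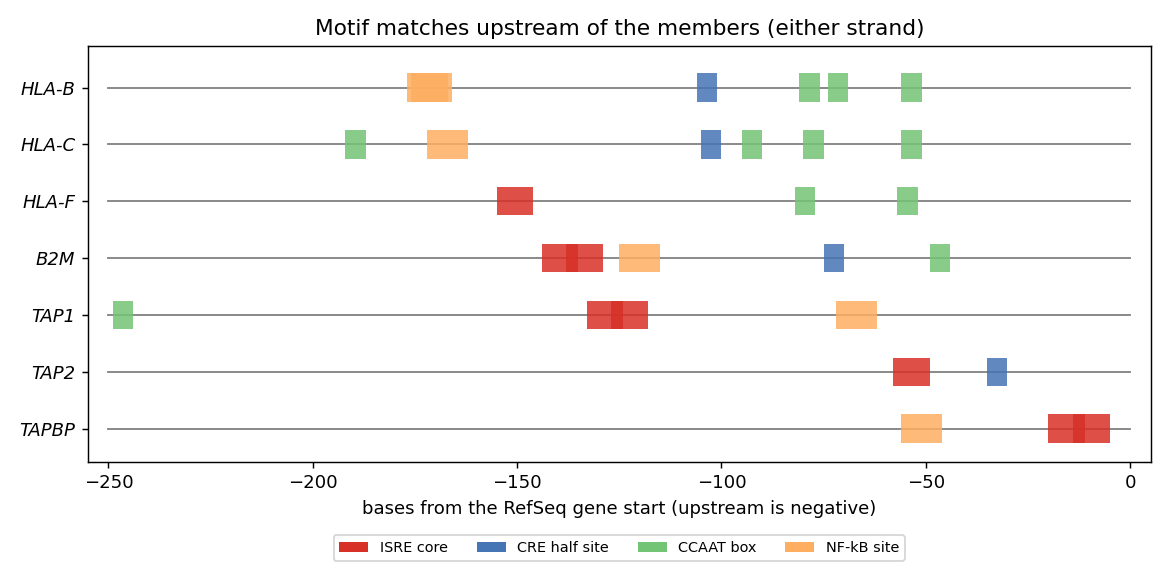
Motif matches on either strand in the 250 bases before the RefSeq start of 7 members, by distance from the start in bases. Exact matches to the ISRE core lie before HLA-F, B2M, TAP1, TAP2 and TAPBP, and the CRE with CCAAT boxes before HLA-B, HLA-C and B2M. Sites that depart from these strings are not shown.

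HLA-B (ENSG00000234745, chr6:31353872-31357188, minus strand, hg38) is a classical heavy chain. In H460 it was at 5.30, 5.26 and 5.01 FPKM in the controls and at 20.1, 17.3 and 25.2 FPKM with ISP-I. The lowest treated library was thus well above the highest control. The ratio of the means was 4.02 and the log2 change 1.80 ± 0.14 (SE, n = 3 and 3, adjusted p = 1.02e-05, limma). In A549 it was much lower, at 0.536, 0.632 and 1.03 FPKM (23 to 46 reads) in the controls and 2.29, 2.75 and 3.26 FPKM (103 to 141 reads) with ISP-I. Again the groups did not overlap, and the means differed 3.77-fold. On the log2(FPKM + 1) scale, which draws low genes toward 0, the A549 change was 1.12 ± 0.13 (adjusted p = 0.000188). It was 1.81 with a pseudocount of 0.1 and 1.92 in limma voom on the recovered reads. All 4 groups of HLA-B were apart, in the order H460 with ISP-I, H460 control, A549 with ISP-I and A549 control.

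HLA-E (ENSG00000204592, chr6:30489509-30494194, plus strand), the heavy chain whose complex is seen by the NKG2A receptor of NK cells, was the most abundant of the heavy chains among the members. H460 controls held 55.2, 58.6 and 57.2 FPKM and treated H460 libraries 117, 96.8 and 146 FPKM. Every treated library exceeded every control, by 2.10-fold on average (log2 change 1.04 ± 0.16, adjusted p = 0.000507, limma). In A549 the values were 29.2, 28.3 and 33.3 FPKM in the controls and 69.9, 67.9 and 70.0 FPKM with ISP-I. This is a ratio of 2.29, with a log2 change of 1.17 ± 0.08 (adjusted p = 8.47e-06). The treated A549 libraries lay above the untreated H460 libraries, although HLA-E in untreated A549 lay below them.

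B2M (ENSG00000166710, chr15:44711487-44718851, plus strand), the light chain shared by all class I heavy chains, had the highest FPKM of the members. In H460 it went from 93.1, 79.2 and 85.9 FPKM in the controls to 120.0, 118 and 203 FPKM with ISP-I. The groups did not overlap, but library 3 lay far above the other two treated libraries. The log2 change was 0.72 ± 0.22 (adjusted p = 0.0163, limma), a ratio of the means of 1.71. Without that library it was 0.46 (adjusted p = 0.00388), and without control library 2 it was 0.66 and did not pass (adjusted p = 0.0578). In A549 the libraries were much closer together, at 53.2, 50.8 and 53.8 FPKM in the controls and 84.4, 86.1 and 83.8 FPKM with ISP-I. B2M there rose by 0.68 ± 0.06 on the log2 scale (adjusted p = 4.12e-05), or 1.61-fold. Treated A549 and untreated H460 libraries overlapped in B2M.

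HLA-C (ENSG00000204525, chr6:31268749-31272130, minus strand), the classical heavy chain that is also the main ligand of killer immunoglobulin-like receptors, did not pass the test in any comparison. It was at 15.9, 14.9 and 17.2 FPKM in H460 controls and at 15.6, 13.1 and 25.6 FPKM with ISP-I. Library 3 of the treated H460 was again the highest, and the other two lay within or below the range of the controls. The log2 change was 0.11 with a 95% interval from -0.38 to 0.61 (adjusted p = 0.657, limma). Without library 3 it was -0.15 (adjusted p = 0.264), in limma voom on the recovered reads 0.40 (adjusted p = 0.141) and with median-of-ratios scaling 0.39 (adjusted p = 0.151). In A549, HLA-C was at 15.8, 14.6 and 16.7 FPKM in the controls and at 14.8, 15.0 and 15.2 FPKM with ISP-I, a log2 change of -0.06 with an interval from -0.22 to 0.10 (adjusted p = 0.498).

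HLA-F (ENSG00000204642, chr6:29722775-29738528, plus strand), a non-classical heavy chain, was near the limit of these libraries. H460 controls held 0.580, 0.992 and 0.607 FPKM and treated libraries 0.622, 0.696 and 1.02 FPKM, and the groups overlapped (log2 change 0.04 ± 0.12, adjusted p = 0.757, limma). In A549 the gene had 8, 5 and 9 reads in the controls and 18, 20 and 17 with ISP-I. These groups did not overlap, and HLA-F rose by 0.20 ± 0.05 (adjusted p = 0.0107). The change was 0.83 with a pseudocount of 0.1, and the main value lost its call when all 12 libraries shared a single estimate of the spread (adjusted p = 0.0986). An antisense gene, HLA-F-AS1, overlaps it in the GENCODE v44 annotation.

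**Figure D3:**
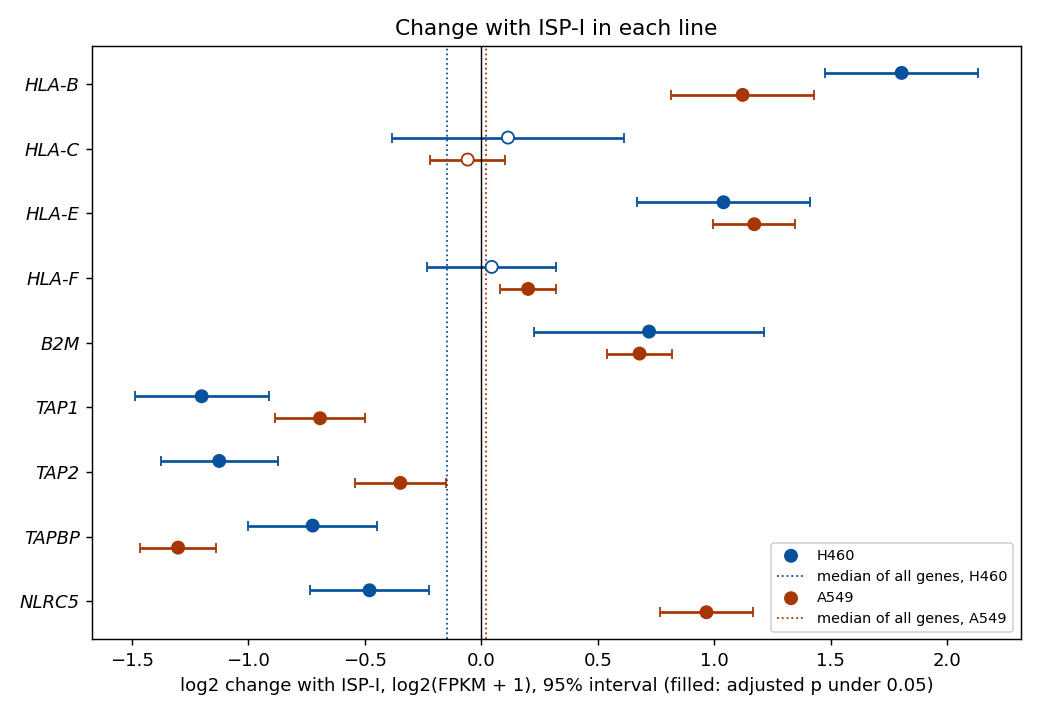
Log2 change with ISP-I of each member in H460 (blue) and A549 (brown) with the 95% interval. Filled points have an adjusted p under 0.05, and dotted lines mark the median change of all genes, -0.15 in H460 and 0.02 in A549.

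TAP1 (ENSG00000168394, chr6:32845209-32853978, minus strand) encodes 1 subunit of the peptide transporter. In H460 it went from 15.4, 17.6 and 16.2 FPKM in the controls to 7.04, 5.59 and 7.18 FPKM with ISP-I. Each treated library was under the lowest control, and TAP1 fell by 1.20 ± 0.13 on the log2 scale (adjusted p = 4.80e-05, limma), to 0.402 of the control mean. With median-of-ratios scaling the H460 change was -0.94 (adjusted p = 0.000285). In A549 the libraries were at 10.4, 10.3 and 12.1 FPKM and, with ISP-I, at 6.45, 6.62 and 6.08 FPKM. The groups did not overlap there either, and TAP1 fell by 0.69 ± 0.08 (adjusted p = 0.000204), to 0.583 of the control mean. The listed span of TAP1 lies inside that of PSMB9 on the opposite strand, at 4.42 FPKM in H460 controls and 1.55 with ISP-I, and the strand setting of the counting is not given, so reads of the pair may be shared.

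TAP2 (ENSG00000204267, chr6:32821833-32838770, minus strand), the other subunit of the transporter, had H460 controls at 5.20, 5.19 and 4.68 FPKM and treated libraries at 1.94, 1.80 and 1.55 FPKM. No library of the groups overlapped, and TAP2 fell by 1.13 ± 0.11 (adjusted p = 3.13e-05, limma), to 0.351 of the control mean. With median-of-ratios scaling the H460 change was -0.91 (adjusted p = 0.000118). In A549 it went from 1.98, 2.24 and 2.29 FPKM to 1.52, 1.31 and 1.65 FPKM. This smaller change of -0.35 ± 0.08 also passed (adjusted p = 0.00819) and was -0.56 in limma voom on the recovered reads. In GENCODE v44 a protein-coding gene on the same strand, ENSG00000250264, spans the listed start and end of TAP2, so reads may have been shared or dropped. In the deposited FPKM, for both TAP1 and TAP2, the 2 lines differed before treatment and overlapped with ISP-I. The median-of-ratios factors were 0.842, 0.855 and 0.849 in the treated H460 libraries and 1.09 in the treated A549 libraries. The overlap therefore depends on the scaling, and the treated lines were not compared by a test.

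TAPBP (ENSG00000231925, chr6:33299694-33314387, minus strand), which encodes tapasin, was the member with the larger fall in A549. In A549 controls it was at 26.6, 26.8 and 29.8 FPKM and with ISP-I at 10.6, 11.0 and 10.3 FPKM. That is 0.384 of the control mean, and the log2 change was -1.30 ± 0.07 (adjusted p = 3.84e-06, limma). H460 went from 19.3, 20.3 and 22.2 FPKM to 11.1, 11.6 and 13.7 FPKM. TAPBP in H460 fell by 0.72 ± 0.12 (adjusted p = 0.00075), to 0.587 of the control mean, and by 0.45 with median-of-ratios scaling (adjusted p = 0.011). In the deposited FPKM the lines changed order, with A549 above H460 before ISP-I and below it after. The nearest treated libraries were close, at 11.0 FPKM in A549 and 11.1 FPKM in H460, and the treated lines were not compared by a test.

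NLRC5 (ENSG00000140853, chr16:56989485-57083531, plus strand), the class I transactivator, moved in opposite directions. In H460 it was at 2.85, 3.67 and 3.42 FPKM in the controls and at 2.05, 2.16 and 2.05 FPKM with ISP-I. The groups did not overlap, and NLRC5 fell by 0.48 ± 0.11 (adjusted p = 0.00483, limma). This call depended on the scaling: the change was -0.27 (adjusted p = 0.0643) with median-of-ratios scaling, -0.23 (adjusted p = 0.122) with quantile normalization and -0.37 (adjusted p = 0.047) in limma voom on the recovered reads. In A549 it went from 0.863, 1.02 and 1.21 FPKM (152 to 221 reads) to 3.05, 3.02 and 2.81 FPKM (499 to 586 reads). Each treated A549 library was above each control, the means differed 2.87-fold and NLRC5 rose by 0.97 ± 0.09 (adjusted p = 4.21e-05). In limma voom the A549 change was 1.52. In H460, NLRC5 was lower, as were TAP1, TAP2 and TAPBP, while HLA-B, HLA-E and B2M were higher. In A549, NLRC5 was higher, as were HLA-B, HLA-E, HLA-F and B2M, while TAP1, TAP2 and TAPBP were lower. The part of NLRC5 in the changes of the other members was not tested.

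The difference of the ISP-I change between the lines was tested as an interaction term over the 12 libraries. It passed for 5 members, 2 with a more positive change in H460 and 3 with a more negative one, and did not for the other 4. Of all genes 18.6% were positive and 34.7% negative, and beyond 1 on the log2 scale 5.93% and 10.1%, where 0 and 1 members were. The widest was NLRC5, whose change in H460 was 1.45 ± 0.13 below that in A549 (interaction -1.45, adjusted p = 2.41e-06, limma). TAP2 differed by -0.78 ± 0.12 (adjusted p = 0.000213) and TAPBP by 0.58 ± 0.13 (adjusted p = 0.00269). These 3 differences passed under each scaling in the plot of scalings, and that of TAPBP was 0.92 in limma voom. TAP1 differed by -0.51 ± 0.14 (adjusted p = 0.0102), but by -0.23 with median-of-ratios scaling (adjusted p = 0.238), -0.26 with quantile normalization (adjusted p = 0.183) and -0.23 in limma voom (adjusted p = 0.307). HLA-B differed by 0.68 ± 0.20 (adjusted p = 0.0139), but by 0.16 with a pseudocount of 0.1 (adjusted p = 0.672) and 0.36 in limma voom (adjusted p = 0.42). For HLA-E the difference was -0.13 with a 95% interval from -0.52 to 0.26, and for B2M 0.04 with an interval from -0.48 to 0.56 (0.35 with median-of-ratios scaling and in limma voom, adjusted p = 0.238 and 0.228). HLA-C (0.17, interval from -0.37 to 0.72, and 0.47 with median-of-ratios scaling) and HLA-F (-0.16, from -0.45 to 0.14) did not pass either.

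**Figure D4:**
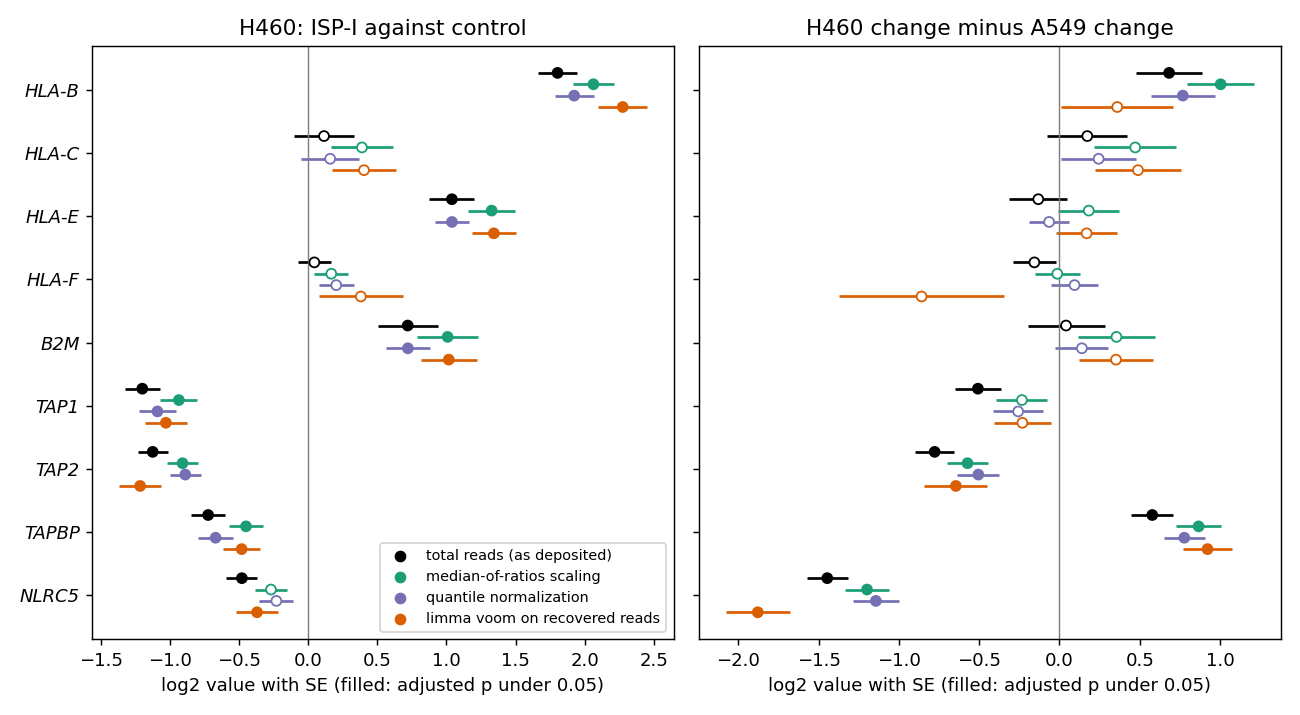
Log2 change with ISP-I in H460 (left) and the change in H460 minus that in A549 (right) for each member, with SE, under the deposited scaling, 2 other scalings of FPKM and limma voom on the recovered reads. Filled points have an adjusted p under 0.05, and NLRC5 in H460 and both TAP1 and HLA-B in the difference lose it under at least 1 of them.

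Before treatment, H460 held more class I RNA than A549 for most members. Of the 9 members, 7 were higher in H460, 1 was lower (TAPBP) and HLA-C did not pass (log2 difference 0.03, adjusted p = 0.804, limma), where 28.6% of all genes were higher and 31.6% lower. By more than 2-fold on the log2(FPKM + 1) scale, 2 were higher and 0 lower, against 5.64% and 8.78% of all genes. That scale draws low genes toward 0, so HLA-F (0.62) and TAP2 (0.93) were not counted, although their ratios of means exceeded 2. HLA-B had the widest ratio, 7.07 (log2 difference 1.85 ± 0.12, adjusted p = 2.55e-06). NLRC5 was 3.22 times as high in H460 (1.09 ± 0.11, adjusted p = 4.40e-05), TAP2 2.31 times (0.93 ± 0.09), HLA-E 1.88 times (0.90 ± 0.09), B2M 1.64 times (0.70 ± 0.09) and TAP1 1.498 times (0.54 ± 0.10). HLA-F was 6.22 times as high, on 5 to 9 reads in A549, and TAPBP was 0.743 times as high (log2 difference -0.41 ± 0.09, adjusted p = 0.00407). Line and everything shared by the libraries of a line cannot be told apart here. This includes heavy chain reads counted on another heavy chain or lost, whose share may differ between the lines and was not measured.

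The other genes of the pathway were read from lists written by hand. Of 8 other heavy chains and class I-like molecules, 6 could be tested in each line. In H460, 2 rose and 4 fell (2 to 3 fell when any library was left out, and 2 without ISP-I library 3 or without control library 2), and in A549, 2 rose (1 without ISP-I library 3), 2 fell and 2 did not pass. Rises made up 27.6% of all tested genes in H460 and 30.5% in A549, and falls made up 41.5% and 27.0%, respectively. HFE, a class I-like regulator of iron uptake, fell in both lines. Its mean was 7.93 FPKM in H460 controls and 0.785 with ISP-I (log2 change -2.32, adjusted p = 1.19e-06, limma), and 5.89 and 1.68 FPKM in A549 (-1.36, adjusted p = 7.06e-06). PROCR, the endothelial protein C receptor with a class I-like fold, fell by 1.70 and 0.78 on the log2 scale. HLA-G, the heavy chain of the placenta, had 0 reads in the 6 controls, 3 to 4 reads in treated H460 and 4 to 9 in treated A549. Because heavy chains are alike and vary between people, reads of one may be counted on another or lost, and their FPKM are less certain than those of B2M or TAP1.

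Among 19 genes that supply and load peptides (immunoproteasome subunits, trimming peptidases, lectin chaperones and glucosidases), falls outnumbered rises. In H460, 3 rose, 11 fell and 5 did not pass, with a median log2 change of -0.55 against -0.15 over all genes, of which 27.6% were higher and 41.5% lower. With median-of-ratios scaling the counts were 4 and 6. The glucosidase subunit GANAB went from 137 to 58.0 FPKM in H460 (log2 change -1.22, adjusted p = 3.70e-05, limma). The immunoproteasome subunit PSMB8 went from 12.05 to 5.01 FPKM (-1.13, adjusted p = 0.000329), and the peptide-trimming enzyme ERAP1 from 4.67 to 2.57 FPKM (-0.67, adjusted p = 0.000896). In A549, 1 rose, 9 fell and 9 did not pass, with a median of -0.43 against 0.02 over all genes, of which 30.5% were higher and 27.0% lower. Calreticulin (CALR), a chaperone of the peptide-loading complex, had the smallest adjusted p there, at 318 FPKM in the controls and 119.9 with ISP-I (-1.40 ± 0.07, adjusted p = 2.44e-06). Its partner PDIA3 in A549 went from 53.6 to 32.7 FPKM (-0.70, adjusted p = 4.26e-05) and the glucosidase MOGS from 22.0 to 11.4 FPKM (-0.90, adjusted p = 4.08e-05). THOP1, a cytosolic peptidase that destroys class I peptides, was the gene of the list that rose in both lines, with means of 35.1 and 65.7 FPKM in H460 (0.88, adjusted p = 0.000542) and 20.7 and 37.9 FPKM in A549 (0.84, adjusted p = 2.91e-05).

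Of 28 regulators of class I transcription, 26 were tested. In H460, 8 rose, 10 fell and 8 did not pass, and in A549, 3 rose, 8 fell and 15 did not pass. Over all genes, 27.6% were higher and 41.5% lower in H460, near the share of this list, and 30.5% and 27.0% in A549. RFX5, the subunit of the RFX complex that binds the X1 box and holds NLRC5 at class I promoters, had the smallest adjusted p of the list in both lines. It was at 16.3 ± 0.636 FPKM in H460 controls and 1.81 ± 0.252 with ISP-I (SD, n = 3), a log2 change of -2.62 ± 0.11 (adjusted p = 6.27e-07, limma). In A549 RFX5 went from 14.9 ± 0.301 to 6.30 ± 0.46 FPKM (-1.13 ± 0.07, adjusted p = 8.40e-06). Another subunit of that complex, RFXAP, went from 4.06 to 0.997 FPKM in H460 (-1.34, adjusted p = 1.22e-05). The interferon receptor kinase TYK2 fell in both, with means of 16.7 and 4.47 FPKM in H460 (-1.69, adjusted p = 4.11e-06) and 13.0 and 7.36 FPKM in A549 (-0.74, adjusted p = 0.000156). In H460, NFKB1 rose from 10.8 to 34.3 FPKM (1.58, adjusted p = 6.71e-06), while in A549 it was at 8.98 FPKM on average in both groups. RELA, the other NF-kB subunit listed, rose in A549 from 20.5 to 33.8 FPKM (0.70, adjusted p = 0.00014) and also in H460 (0.87, adjusted p = 0.000727). EZH2, the Polycomb methyltransferase, fell in A549 from 18.6 to 10.1 FPKM (-0.81, adjusted p = 0.000209).

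Other ligands that a tumour cell shows to T and NK cells (17 genes) moved in both directions. In H460, 6 rose and 4 fell, and in A549, 4 rose and 8 fell, of which 4 to 8 fell when a library was left out (4 without ISP-I library 3, 5 without ISP-I library 2). The shares over all genes were 27.6% and 41.5% in H460 and 30.5% and 27.0% in A549. CD274 encodes PD-L1, the ligand of the T cell inhibitory receptor PD-1. In H460 it was at 3.77, 3.03 and 3.25 FPKM in the controls and at 49.9, 55.8 and 39.9 FPKM with ISP-I, a log2 change of 3.50 ± 0.15 (adjusted p = 5.38e-07, limma). In A549 CD274 was low throughout, at 0.201 FPKM on average in the controls (7 to 15 reads) and 0.756 with ISP-I (41 to 53 reads), and rose by 0.55 ± 0.08 (adjusted p = 0.00052). NCR3LG1, the ligand of the activating NK receptor NKp30, rose in H460 from 3.80 to 17.03 FPKM (1.89, adjusted p = 2.19e-05) and in A549 from 1.64 to 9.10 FPKM (1.94, adjusted p = 1.89e-06). The adhesion ligand ICAM1 rose in H460 from 0.265 to 2.30 FPKM (1.38, adjusted p = 8.26e-06), and CD47, the signal against phagocytosis, fell there from 4.28 to 1.40 FPKM (-1.14, adjusted p = 3.57e-05). In A549, NECTIN2 and PVR, both ligands of TIGIT and DNAM-1, fell from 31.8 to 9.18 FPKM (-1.69, adjusted p = 3.37e-06) and from 48.7 to 32.4 FPKM (-0.57, adjusted p = 0.000182). Their means in H460 went from 11.4 to 4.98 FPKM for NECTIN2 and from 24.4 to 27.2 FPKM for PVR. The A549 means of ICAM1 went from 0.0661 to 0.409 FPKM and those of CD47 from 9.31 to 7.43 FPKM.

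**Figure D5:**
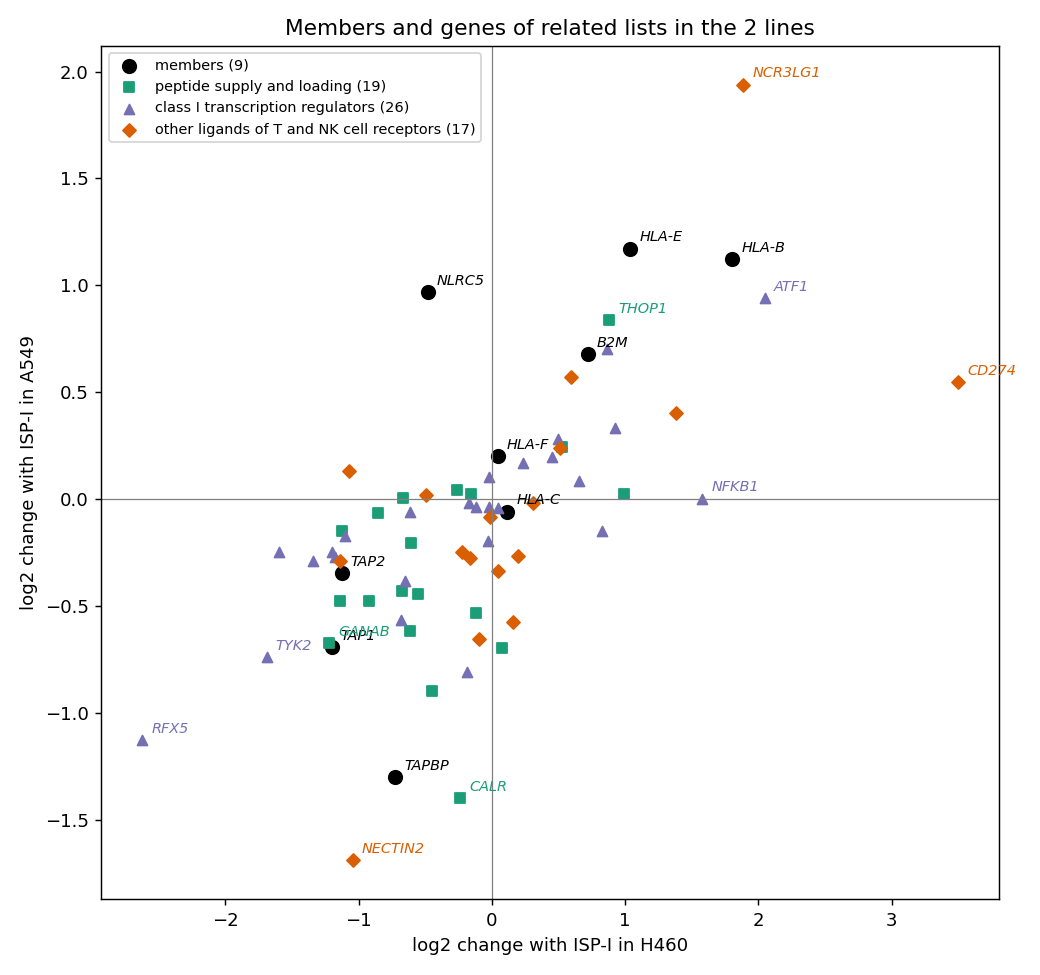
Log2 change with ISP-I in H460 (x axis) and A549 (y axis) for the 9 members and the tested genes of 3 related lists. TAP1, TAP2 and TAPBP lie at the lower left with GANAB and RFX5, HLA-B, HLA-E and B2M at the upper right with NCR3LG1, and NLRC5 alone among the members lies at the upper left.

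Interferon-stimulated genes, which normally rise together with class I genes, were counted in the same way. Of 42 tested in H460, 11 rose and 18 fell, and of 38 in A549, 9 rose and 8 fell, so 13 and 21 did not pass. All genes had 27.6% higher and 41.5% lower in H460, close to this list, and 30.5% and 27.0% in A549. The H460 counts became 14 and 14 under median-of-ratios scaling. The antiviral synthetase OAS3 fell, with means of 19.9 and 1.001 FPKM in H460 (log2 change -3.38, adjusted p = 1.86e-07, limma) and 19.9 and 8.10 FPKM in A549 (-1.20, adjusted p = 3.23e-06). USP18, which dampens interferon signalling, fell in H460 from 8.86 to 1.67 FPKM. In the same line IFIT2 rose from 0.41 to 6.29 FPKM and OASL from 0.192 to 3.18 FPKM. In A549 the means went from 7.06 to 4.15 FPKM for USP18, from 0.369 to 1.22 for IFIT2 and from 0.363 to 1.77 for OASL. The chemokine gene CXCL11 had 0 reads in all controls, 168 to 181 in treated A549 and 33 to 99 in treated H460. In A549 the nuclease gene ISG20 rose from 0.737 to 5.59 FPKM, and IFITM2 fell from 12.6 to 6.28 FPKM. Their means in H460 went from 3.19 to 15.5 FPKM and from 7.02 to 2.06 FPKM. Of 13 class II genes and their chaperones 4 could be tested in each line. In H460, 2 rose and 0 fell, and in A549, 2 rose (1 to 2 when a library was left out) and 1 fell, beside the same all-gene shares. HLA-DMA, an editor of class II peptides, rose in H460 from 0.286 to 3.20 FPKM (1.71, adjusted p = 1.23e-06), and the class II transactivator CIITA was at no more than 0.129 FPKM in any library. HLA-DMA also rose in A549 (0.30, adjusted p = 0.0238), and CTSS rose in H460 (0.77) and A549 (0.37). HLA-DMB fell in A549 (-0.35, adjusted p = 0.00135).

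The members on chromosome 6 lie in the major histocompatibility complex. Between the starts of HLA-F and TAPBP the table lists 141 genes that are not members. In H460, 27 of the 92 tested were higher and 35 lower with ISP-I (33 and 29 with median-of-ratios scaling), close to the 27.6% and 41.5% of all genes. In A549, 26 of 88 were higher and 22 lower, beside 30.5% and 27.0% of all genes. Before treatment 44 of 89 were higher in H460 than in A549 and 11 lower, where 28.6% and 31.6% of all genes were.

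Over the 12 libraries, HLA-B, HLA-E and B2M varied together, with a Pearson r of 0.93 between HLA-B and B2M and 0.96 between HLA-E and B2M (log2(FPKM + 1)). TAP1 and TAP2 had r = 0.91, while HLA-E and TAPBP had r = -0.80. These describe 12 points that fall into 4 groups and share library and treatment. When the search was held to genes averaging 5 FPKM or more, those most like HLA-B were NR0B1, HSPB8 and NAB2 (r = 0.997, 0.992 and 0.992), and those most like B2M were LY6K, BYSL and SIRT6 (0.983, 0.975 and 0.974). TAP1 was followed by NCS1, CDK16 and KIF22 (0.993, 0.991 and 0.989) and NLRC5 by HK1, PMP22 and ST3GAL1 (0.974, 0.970 and 0.946).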

How the data were processed

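RNA libraries were made with the TruSeq RNA kit. According to the submitters' processing notes, FastQC, HISAT2 and HTSeq 0.9.1 were used with the hg38 build. The table the authors deposited holds FPKM, in which reads were divided by gene length (its own column, in bases) and by each library's total. The annotation version and the strand setting are not given in the sources used here. FPKM times length gave whole reads for 100% of the values in each library (within 0.02 reads), which set the depth. The columns name line and treatment with a running number within each line, which could not be tied to single labelled samples, so libraries are numbered by their order in a group. Of the table's lines, 4 malformed ones were left out. Columns of other samples numbered 0.

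Deposited values were taken as log2(FPKM + 1) and tested with limma 3.58.1 (R 4.3.3) with the trend option of its empirical Bayes step, on genes averaging 0.1 FPKM or more, with Benjamini-Hochberg adjustment over all genes. Fits within a line used 6 libraries and the interaction 12. The code was tested on simulated data. Python 3.11.15 with pandas 2.3.3 and numpy 2.4.6 served for the tables.

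The members and lists were chosen with earlier results of these data known. All members are named, with up to 4 genes of each list (1 gene is not reported here) with the smallest adjusted p in a comparison, and the 3 genes most like HLA-B, B2M, TAP1 and NLRC5. ITGAM, CD14, PTPRC, EPCAM, CDH1, CLDN4, MUC1, the keratins, CIITA and HLA-G in H460 were named after their values were seen. The alternatives tried were no filter or one at 1 FPKM, a pseudocount of 0.1, median-of-ratios scaling, quantile normalization, limma voom on the recovered reads, a fold change over 2, a single fit of 12 libraries and leaving out each library. Promoters are from RefSeq (GRCh38.p14) and overlaps from GENCODE v44; printed promoters leave out bases that GENCODE gives as UTR of a canonical transcript. No table of proteins was used here.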

Additional observations from a re-analysis of the deposited data

Results flagged for a closer look

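The change with ISP-I differed between H460 and A549 for 5 members by the interaction test, given as the log2 change in H460 minus that in A549. NLRC5 differed by -1.45, higher with ISP-I in A549 and lower in H460, where the fall lost its call with median-of-ratios scaling (-0.27, adjusted p = 0.0643, limma) and quantile normalization (-0.23, adjusted p = 0.122). TAP2 differed by -0.78 and TAP1 by -0.51, where both fell in both lines and further in H460. TAPBP differed by 0.58, with the deeper fall in A549, and HLA-B by 0.68, with the larger rise in H460. The differences of TAP1 and HLA-B lost their call under some of the alternatives below. Whether the lines differed for a technical or a biological reason was not tested.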

How the results depend on the processing

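No paired analysis was possible because the columns' running numbers within a line could not be tied to the replicate numbers of the labels. Leaving out each library in turn, 2 to 3 members rose in H460 and 4 fell (all genes 3304 to 4004 and 5010 to 5843). In A549, 5 rose and 3 fell (3447 to 4728 and 3076 to 4427). Between untreated lines, 7 were higher and 1 lower in H460 (3361 to 4043 and 3662 to 4749), and 2 differences were positive and 3 negative (2322 to 3000 and 4410 to 5282). When a fold change over 2 was required under the deposited scaling, 2 members rose and 2 fell in H460 (all genes 1409 higher, 2047 lower). With the same rule, 2 rose and 1 fell in A549 (575, 481), and 2 were higher and 0 lower in untreated H460 (763, 1188). Among the differences, 0 were positive and 1 negative (827, 1407). A pseudocount of 0.1 and limma voom each left 1 positive difference, and voom 3149 negative ones over all genes. Signs turned for values that did not pass. Leaving out a library, HLA-C in H460 ranged from -0.153 to 0.307 and HLA-F from -0.0493 to 0.152 (lowest without ISP-I library 3 for both). Between untreated lines, HLA-C ranged from -0.0211 to 0.0751. The difference of HLA-E was 0.18 with median-of-ratios scaling, 0.17 in voom and -0.284 to 0.0111 when a library was left out, and that of HLA-F was 0.0937 with quantile normalization. Those of B2M and HLA-C were lowest without H460 ISP-I library 3, at -0.22 and -0.0936, and that of HLA-C highest at 0.366. Median-of-ratios scaling moved the median of all genes in H460 from -0.15 to 0.01 and the share of higher genes among those that passed from 40.0% to 51.9%, and in the difference from 34.9% to 53.5%. HLA-F and HLA-B in A549 rest on few reads.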
